A study of Mus musculus with 6 samples.

Results

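The colony-stimulating factors and their receptors were examined in macrophages of 2 fat tissues of the mouse abdomen. The group was set by gene name and holds 10 of the 23946 genes of the table, namely the ligands Csf1, Il34, Csf2, Csf3 and Flt3l and the receptor chains Csf1r, Csf2ra, Csf2rb, Csf2rb2 and Csf3r. All 10 were rows of the table, and 9 reached an FPKM (fragments per kilobase of transcript, scaled to the mapped fragments of the library) of at least 1 in at least 1 library. Csf3 did not reach it. These 9 are read against the 13064 genes of the table that passed the same limit.

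Cells carrying CD45, CD11b and F4/80 were sorted from the omentum (OM), the apron of fat in which ovarian cancer cells settle early, and from the mesenteric adipose tissue (MY) of wild-type C57BL/6 mice. The mice were either naive (0 h) or had received ID8 cells, a mouse ovarian cancer line of the C57BL/6 background, into the peritoneal cavity 24 h or 7 d earlier. Each tissue and time gave 1 library, 6 in all, and the macrophages of a library came from 3 pooled mice. No value therefore has a replicate error, no test between conditions was possible, and every difference describes a pair of libraries. Naive mice were not injected, so the cancer cells and the injection itself cannot be told apart in the comparisons with 0 h.

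Colony-stimulating factors are secreted proteins on which blood-forming and myeloid cells depend for survival, growth and maturation. CSF1 (M-CSF) and IL-34 are separate ligands of a shared receptor, the tyrosine kinase CSF1R, on which most tissue macrophages depend. GM-CSF, the product of Csf2, signals through an alpha chain of its own (Csf2ra) paired with a beta chain (Csf2rb) that also serves IL-3 and IL-5, whereas Csf2rb2 is a mouse beta chain specific for IL-3. G-CSF, the product of Csf3, acts through CSF3R and drives neutrophil production, and FLT3 ligand, the product of Flt3l, drives dendritic cell development through the receptor FLT3.

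The libraries were checked against their label before the members were compared. The sort markers were present in every library, with Ptprc (CD45) between 105.8 and 208.3 FPKM, Itgam (CD11b) between 27.8 and 150.9 and Emr1 (F4/80) between 20.5 and 135.0. Markers of other cells were present as well. The 7 neutrophil markers in the table summed to between 6296 and 15330 FPKM in the omental and between 238.0 and 688.5 in the mesenteric libraries. The 5 B cell markers summed to between 524.3 and 3967 FPKM over all 6 libraries and the 4 monocyte markers in the table to between 447.1 and 1545. The eosinophil, mast cell and endothelial lists stayed at or below 20.7, 56.9 and 46.4 FPKM. The column sums lay between 526887 and 713863 FPKM, highest in OM 24h. Below, 3 values given for a tissue are in the order 0 h, 24 h and 7 d. In OM 24h Cd74, an abundant gene of antigen-presenting cells, was listed at 0, against at least 11323 FPKM in each of the others, so a listed 0 can be a failed estimate. No ratio is given against a listed 0, and a difference of log2(FPKM + 1) that rests on one is named as such.

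Sequences decide how far some of these values can be trusted. Csf2rb and Csf2rb2 lie side by side on chromosome 15 on opposite strands, at chr15:78156420-78184277 (plus strand) and chr15:78112947-78136052 (minus strand) of NCBIM37 (mm9). Their coding sequences hold 2691 and 2637 bases and are identical at 2505 of 2631 aligned bases (95.2%). The longest identical run is shown because a read of 75 bases within it cannot, on its own, be given to either gene. It is 242 bases long and spans coding bases 2083 to 2324 of both genes.

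Csf2rb and Csf2rb2, shared run: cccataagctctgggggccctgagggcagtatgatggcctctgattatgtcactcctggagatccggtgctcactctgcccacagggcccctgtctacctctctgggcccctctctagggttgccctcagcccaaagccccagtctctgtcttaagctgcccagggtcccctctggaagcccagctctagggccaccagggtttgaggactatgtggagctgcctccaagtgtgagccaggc

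The stretch of 75 bases in which the chains differ most is shown for contrast, with capitals at the 14 bases that differ. It lies at coding bases 316 to 390 of Csf2rb and 319 to 393 of Csf2rb2.

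Csf2rb: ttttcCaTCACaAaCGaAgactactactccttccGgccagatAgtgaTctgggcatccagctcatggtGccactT

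Csf2rb2: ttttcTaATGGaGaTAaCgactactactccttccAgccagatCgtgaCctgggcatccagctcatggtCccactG

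Of the 75-base windows of the longest transcripts, 10.9% for Csf2rb and 10.8% for Csf2rb2 were found in the partner as well. The split between these chains is therefore uncertain, while their sum is less so. Flt3l was the most exposed member by GENCODE M1, which is not the annotation the authors used. On chr7:52386558-52391802 (minus strand) it shares 5230 bases with the ribosomal protein gene Rpl13a on the same strand in the GENCODE M1 annotation, and 954 of its 1284 windows (74.3%) also occur in a transcript of another gene. For Csf1r, at chr18:61265226-61291803, the share was 17.2% and belonged to Hmgxb3, which overlaps it on the opposite strand over 871 bases. Hmgxb3 itself stood at 7.10 to 10.4 FPKM in the 6 libraries. The windows of Csf1, Il34, Csf2, Csf2ra and Csf3 were free of such sharing. The strandedness of the libraries was not given in the sources used here.

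The RefSeq promoter table (GRCm38.p6) held Csf1, Csf2, Csf2ra, Csf2rb2, Csf3r and Flt3l. PU.1, the transcription factor that sets up the myeloid programme, binds letters around GAGGAA. The last 120 bases before the annotated start are shown for Csf2ra, Csf3r and the ligand Csf1, with GAGGAA in capitals.

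Csf2ra, chr19:61228419-61228538, minus strand: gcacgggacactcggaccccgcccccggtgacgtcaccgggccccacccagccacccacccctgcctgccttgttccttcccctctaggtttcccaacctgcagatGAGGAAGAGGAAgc

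Csf3r, chr4:126024539-126024658, plus strand: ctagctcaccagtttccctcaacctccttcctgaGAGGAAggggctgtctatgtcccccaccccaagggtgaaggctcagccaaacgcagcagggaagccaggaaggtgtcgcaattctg

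Csf1, chr3:107760470-107760589, minus strand: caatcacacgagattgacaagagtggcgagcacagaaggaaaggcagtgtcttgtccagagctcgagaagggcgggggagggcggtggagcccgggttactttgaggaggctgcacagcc

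In the 250 bases before the start, GAGGAA on either strand was found in 3 of the 6 promoters. The matches began at -14 and -8 in Csf2ra, counted back from the start, and at -86 in Csf3r. That of Csf2rb2 began at -167, on the other strand and outside the length shown. A link between these letters and the levels was not tested. Of all 32851 promoters in the table, 23.3% held it. The C/EBP letters TTNNGNAA were found for Csf2 and Csf2ra, against 36.8% of all promoters, and did not overlap GAGGAA. The Sp1 letters GGGCGG were found in 4 of the 6 (32.7% of all) and overlapped neither of these. The NF-kB letters (3 G, any 5 bases and 2 C) were also found in 4 of the 6, against 45.8% of all promoters, and overlapped Sp1 matches in Csf1 and Flt3l. The AP-1 letters TGANTCA, present in 6.75% of all promoters, were found in none of the 6. These are matches of letters within a short window and not measured binding sites.

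By level per transcript length, the receptor chains Csf1r, Csf2ra and Csf2rb held the 3 highest places in every library. Csf1r, the most abundant member in every library but OM 0h, stood at the 93.2nd to 98.7th percentile of the genes tested, and Csf2ra, first in OM 0h, at the 89.6th to 97.5th. Csf2rb ranked next after them in all 6 libraries. With 1 library per condition, it cannot be said which neighbours in this order differ beyond their spread. Csf1r and Csf2ra stood at 102.8 and 100.5 FPKM in OM 7d, the closest pair at the top.

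**Figure D1:**
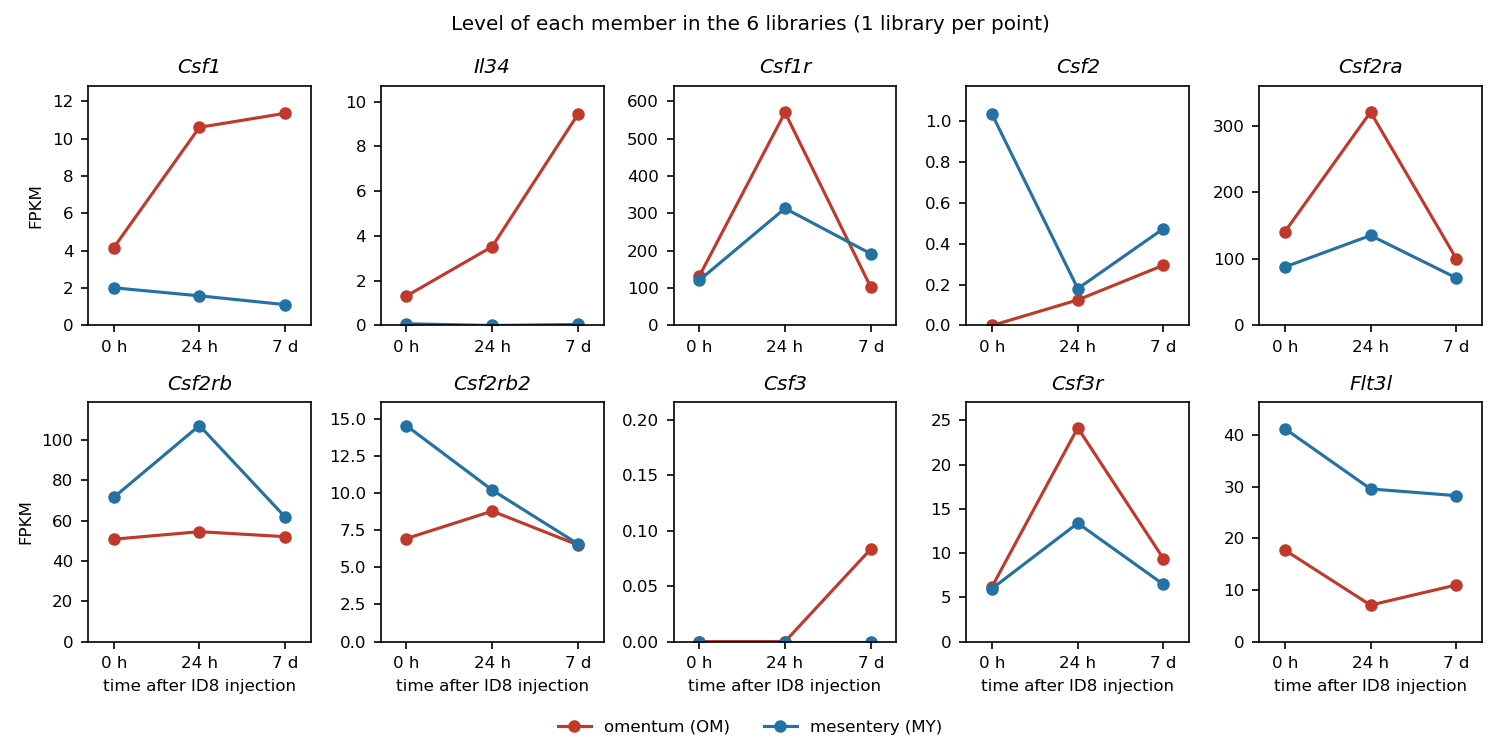
FPKM of each of the 10 members (vertical axis, starting at 0 and scaled for each gene) at 0 h, 24 h and 7 d after ID8 injection (horizontal axis, not to scale), red for the omentum and blue for the mesentery. Each point is 1 library, and lines only join the points of a tissue. Whether both tissues of a time came from the same mice was not stated in the sources used here. Csf1r, Csf2ra and Csf3r peaked at 24 h in both tissues, Csf1 and Il34 were higher in every omental library than in any mesenteric one, and Csf2rb and Flt3l were lower in every omental one.

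Il34 was the member most unequal between the tissues. It encodes a CSF1R ligand made mainly in skin and brain, and lies at chr8:113265729-113329824 on the minus strand. Its level was 1.32, 3.53 and 9.44 FPKM in the omentum, and in the mesentery it was 0.0783 before injection, listed at 0 after 24 h and 0.0456 after 7 d. The 3 omental values were all above the 3 mesenteric ones and highest at 7 d. On the log2(FPKM + 1) scale, which understates changes of low values, the omentum exceeded the mesentery by 1.10 at 0 h, 2.18 at 24 h, where the mesenteric value is the listed 0, and 3.32 at 7 d. Against OM 0h the difference was 0.96 in OM 24h and 2.17 in OM 7d.

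Csf1, the main growth factor of macrophages, lies at chr3:107543966-107563387 on the minus strand. Its level was 4.17, 10.6 and 11.4 FPKM in the omentum against 2.02, 1.59 and 1.12 in the mesentery. The tissues did not overlap, and the injected omental libraries were alike. OM 24h exceeded MY 24h 6.68-fold (2.17 on the log2 scale) and OM 7d exceeded MY 7d 10.2-fold (2.55). The naive libraries differed by 0.77. In the omentum, Csf1 was 2.55-fold higher at 24 h and 2.73-fold higher at 7 d than at 0 h, while in the mesentery the log2 differences from 0 h were -0.22 and -0.51. The balance of both ligands moved too, with the FPKM of Csf1 at 3.16, 3.01 and 1.20 times that of Il34 in the omentum.

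Like both ligands, the sums of stromal marker genes were higher in every omental library than in any mesenteric one. The 6 mesothelial markers summed to 69.8, 740.7 and 782.4 FPKM in the omentum and to between 0.0830 and 0.567 in the mesenteric libraries. The 6 fibroblast markers summed to 344.6, 221.5 and 1190 FPKM in the same omental libraries and to between 2.08 and 3.10 in the mesenteric ones. Within the omentum the fibroblast sum was lowest at 24 h, while both ligands were lowest at 0 h. All 6 genes of both lists were higher in every omental library than in any mesenteric one, against 16.7% of all genes tested. Upk1b, Lrrn4 and Wt1 of the mesothelial list and Pdgfra of the fibroblast list were at 0 in at least 1 mesenteric library. The part of these cells in the Csf1 and Il34 values was not tested. In such bulk samples, more cells of a type and more RNA per cell cannot be told apart.

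The pattern of Il34 over the 6 libraries was most like that of Pkd2 (r = 0.999, 6 libraries), Igfbp2, an insulin-like growth factor binding protein (r = 0.999), and Tmem255a (r = 0.997). Likeness was measured by Pearson's r of log2(FPKM + 1) among the 7998 genes that reached 10 FPKM. Igfbp2 stood at 3.85, 20.2 and 137.4 FPKM in the omentum and was listed at 0 in MY 0h and MY 24h. Csf1 was most like AA467197, Arl3 and Pdpn (podoplanin, a surface protein of mesothelial and stromal cells), each with r of 0.99 or above. Pdpn stood at 2.80, 15.4 and 16.0 FPKM in the omentum, at 0.234 in MY 0h and was listed at 0 in the other mesenteric libraries. Between Csf1 and Il34 themselves r was 0.96. The 6 points of each such correlation are libraries of both tissues, so these values are descriptions and carry no test.

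Csf1r, the receptor of both ligands, followed another course. Its level was 131.9, 569.8 and 102.8 FPKM in the omentum and 120.9, 313.2 and 192.1 in the mesentery. It was highest at 24 h in both tissues, and the tissues overlapped. OM 24h exceeded OM 0h 4.32-fold (2.10 on the log2 scale) and MY 24h exceeded MY 0h 2.59-fold (1.37), whereas at 7 d the log2 differences from 0 h were -0.36 in the omentum and 0.66 in the mesentery. Between the tissues the log2 difference was 0.12 at 0 h, 0.86 at 24 h and -0.90 at 7 d, each below 2-fold. Across the 6 libraries r between Csf1r and Csf1 was 0.10 and between Csf1r and Il34 it was -0.08. Per unit of summed ligand (Csf1 plus Il34), Csf1r stood at 24.0, 40.3 and 4.94 in the omentum and at 57.6, 197.1 and 165.1 in the mesentery. The mesenteric ligand sums were low, at 2.10, 1.59 and 1.16 FPKM, and that of MY 24h includes the listed 0 of Il34.

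The macrophage markers were highest in the same 24 h libraries. They summed to 8641, 34297 and 7764 FPKM in the omentum and to 3797, 5584 and 3468 in the mesentery. Lyz2 alone made up most of each sum, at 7054, 24780 and 6791 FPKM in the omentum and 2968, 3578 and 2571 in the mesentery. Gene by gene, 8 of 8 markers in the omentum and 5 of 8 in the mesentery were at least 2-fold higher at 24 h than at 0 h. The shares of all genes tested were 11.9% and 2.80%. The ratio of Csf1r to Emr1, the gene of the sorted F4/80 antigen, was 4.82, 4.22 and 3.88 in the omentum and 5.89, 4.56 and 5.12 in the mesentery. The ratio to Cd68, another macrophage gene, was 0.662, 0.896 and 0.774 in the omentum and 1.28, 2.07 and 1.70 in the mesentery, so that the tissues overlapped by the first ratio and were apart by the other. The part of the macrophage share of the sort in the Csf1r values was not tested. The genes most like Csf1r were the kinase gene Map3k11 (r = 0.99), Atp13a2 (r = 0.99) and Man1c1 (r = 0.99).

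The list of CSF1R signalling held 21 genes, of adaptors, kinases and phosphatases and of the receptor Trem2, and all passed the limit on level. In OM 0h against MY 0h, 4 were at least 2-fold higher and 1 lower, against 8.18% and 8.05% of all genes. Between the tissues 1 was higher and 0 lower at 24 h (13.9% and 10.2% of all genes). The same counts held at 7 d (14.1% and 4.99%), and the higher gene was Trem2 at both times. In OM 24h against OM 0h, 3 were higher and 1 lower by at least 2-fold, against 11.9% and 6.45% of all genes tested, with a median log2 difference of -0.09 against 0 for all genes. Trem2, a lipid receptor of macrophages that signals through the adaptor DAP12, stood at 7.50, 190.6 and 18.9 FPKM in the omentum and 0.813, 4.49 and 0.467 in the mesentery. It was higher in every omental library than in any mesenteric one and differed between OM 24h and OM 0h by 4.49 on the log2 scale. Tyrobp, which encodes DAP12, differed by 1.26 between the same libraries. Syk, a kinase downstream of DAP12, went the other way, at 180.5 FPKM in OM 0h, 59.4 in OM 24h and 86.3 in OM 7d, while the 3 mesenteric libraries lay between 52.8 and 56.5. The B cell markers summed to 3967, 904.4 and 2447 FPKM in the omentum and 795.7, 524.3 and 1539 in the mesentery. All 5 were at least 2-fold lower in OM 24h than in OM 0h, against 6.45% of all genes. The part of B cells in the Syk values was not tested. The Src family kinase Lyn was 2.66-fold higher in OM 0h than in MY 0h. In the mesentery, 1 gene of the 21 (Trem2) was higher at 24 h than at 0 h, against 2.80% of all genes. At 7 d 1 (Src) was lower than at 0 h, against 2.29%.

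Of 6 transcription factors known to act on Csf1r, Cebpb and Cebpa exceeded OM 0h at least 2-fold in OM 24h, against 11.9% of all genes. Cebpb, a factor of inflammatory myeloid genes, stood at 470.9, 1305 and 734.6 FPKM in the omentum and 209.2, 611.1 and 228.1 in the mesentery, highest at 24 h in both. Cebpa was at 21.4 FPKM in OM 0h and 49.1 in OM 24h, and differed by -1.15 on the log2 scale between MY 7d and MY 0h. Ets2 was higher in every omental library than in any mesenteric one and Irf8 lower, as 16.7% and 17.7% of all genes were. Spi1, which encodes PU.1, did not differ 2-fold in any of the 7 comparisons. The median log2 difference of the list was 0.68 in OM 24h against OM 0h and 0.22 in MY 24h against MY 0h.

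Of the genes for another IL-34 receptor and for proteases that shed CSF1 or its receptor, 3 of 4 passed the limit on level. Sdc1 (syndecan-1, a surface proteoglycan that binds IL-34) stood at 13.0, 32.8 and 22.1 FPKM in the omentum and 6.11, 1.85 and 11.9 in the mesentery, without overlap. The protease gene Adam10 was 2.197-fold higher in OM 24h than in MY 24h. Adam17 did not differ 2-fold in any comparison, and Ptprz1, a receptor of IL-34 in brain, stayed at or below 0.0669 FPKM.

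Csf2, the GM-CSF gene at chr11:54060773-54063169 (minus strand), was near the floor of the table. In the omentum it was listed at 0 before injection and stood at 0.125 and 0.295 FPKM after it, and in the mesentery it stood at 1.03, 0.181 and 0.474. The table carries no read counts, so how many reads lie behind these values is unknown. MY 0h alone reached 1 FPKM, and through it the gene passed the limit. Csf3, the G-CSF gene at chr11:98562577-98564943 (plus strand), was listed at 0 in 5 libraries and at 0.0834 FPKM in OM 7d.

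The receptor chains of GM-CSF were abundant in every library. Csf2ra, the ligand-binding alpha chain at chr19:61300305-61304321 (minus strand), stood at 140.8, 320.8 and 100.5 FPKM in the omentum and at 87.9, 135.3 and 71.5 in the mesentery. Like Csf1r it was highest at 24 h in both tissues. OM 24h exceeded OM 0h 2.28-fold (1.18 on the log2 scale) and MY 24h 2.37-fold (1.24), while MY 24h exceeded MY 0h 1.54-fold. After rescaling of each library to the same sum, neither omental difference reached 2-fold.

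Csf2rb, the shared signalling chain, was the steadiest member in the omentum, at 50.8, 54.6 and 52.1 FPKM. In the mesentery it stood at 71.6, 107.3 and 61.8, above all 3 omental values. The log2 difference between the tissues was -0.49 at 0 h, -0.96 at 24 h and -0.24 at 7 d, each below 2-fold. Csf2rb2 was lower, at 6.93, 8.78 and 6.50 FPKM in the omentum and 14.5, 10.2 and 6.57 in the mesentery. The tissues overlapped, and MY 7d was 2.21-fold lower than MY 0h (log2 difference -1.04).

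The ratio of Csf2ra to the summed beta chains does not depend on the uncertain split between Csf2rb and Csf2rb2. It was 2.44, 5.06 and 1.72 in the omentum against 1.02, 1.15 and 1.05 in the mesentery. Every omental library had the higher ratio, and the 3 mesenteric ratios lay close together, with Csf2ra and Csf2rb higher and Csf2rb2 lower in MY 24h than in MY 0h. Csf2rb stood at between 4.93 and 10.5 times Csf2rb2. The genes most like Csf2ra were Mfsd12, Dnase1l1 and Tmem179b (r = 0.996, 0.995 and 0.995), those most like Csf2rb were Hdhd2, Fam98c and the receptor kinase gene Grk5 (r = 0.995, 0.992 and 0.986), and those most like Csf2rb2 were Tubgcp4, Idh3b and Smap1 (r = 0.98, 0.98 and 0.96). For Csf2 they were Osbpl5, Tmc6 and Fbxw2 (r = 0.96, 0.94 and 0.93).

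**Figure D2:**
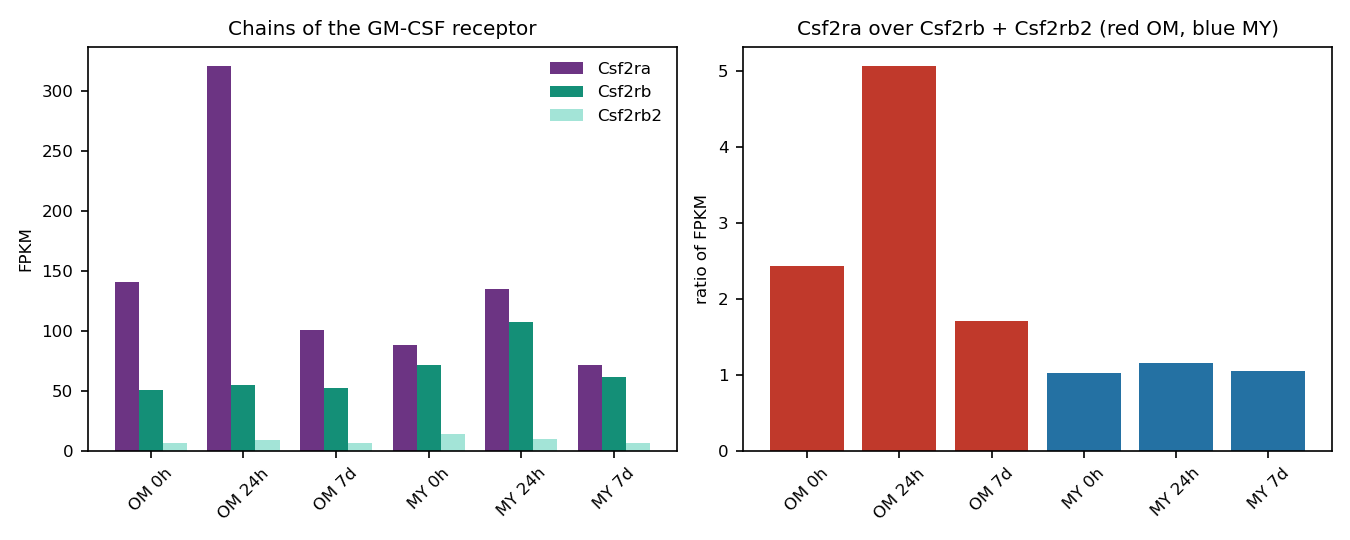
Left, FPKM of the alpha chain Csf2ra and the beta chains Csf2rb and Csf2rb2 in each of the 6 libraries (bars from 0). Right, the ratio of Csf2ra to the sum of both beta chains, red for omental and blue for mesenteric libraries, which was 5.06 in OM 24h and between 1.02 and 1.15 in the mesentery.

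Of 8 genes known to depend on GM-CSF, 2 stood at least 2-fold higher and 2 lower at 24 h than before injection in the omentum (11.9% and 6.45% of all genes), with a median log2 difference of 0.40 against 0 for all genes. In the mesentery 2 were higher at 24 h and none lower (2.80% and 1.52%). Between the tissues, 3 were higher and 1 lower in the omentum at 0 h (8.18% and 8.05%). At 24 h 1 was higher and 0 lower (13.9% and 10.2%), close to the share of all genes, and at 7 d 4 were higher and 1 lower (14.1% and 4.99%). Ccl17, a chemokine gene of GM-CSF-treated myeloid cells, stood at 20.9, 66.6 and 110.8 FPKM in the omentum and 21.0, 58.7 and 20.5 in the mesentery, so the tissues were alike until 24 h and apart at 7 d. Pparg, a lipid-sensing nuclear receptor needed by alveolar macrophages, was 4.22-fold higher in OM 24h than in MY 24h. The lipid carrier Fabp4 had a log2 difference of -1.54 between OM 24h and OM 0h, and Fabp5 one of 1.07. Irf4 stood at 25.5, 6.54 and 17.6 FPKM in the omentum and 11.1, 6.50 and 13.6 in the mesentery, lowest at 24 h in both, as the B cell marker sums were. The part of B cells in the Irf4 values was not tested.

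Csf3r, the G-CSF receptor at chr4:125701794-125722219 (plus strand), stood at 6.21, 24.1 and 9.36 FPKM in the omentum and at 5.99, 13.4 and 6.46 in the mesentery. It was highest at 24 h in both tissues and nearly equal in the naive libraries, with a log2 difference of 0.04. OM 24h exceeded OM 0h 3.89-fold (1.80) and MY 24h exceeded MY 0h 2.23-fold (1.04). The mesenteric difference fell below 2-fold after rescaling to the same sum and with a pseudocount of 5.

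Csf3r is a gene of neutrophils as well as of monocytes and macrophages. The neutrophil markers summed to 6296, 14595 and 15330 FPKM in the omentum and to 671.3, 688.5 and 238.0 in the mesentery, with Ly6g not a row of the table. S100a8 and S100a9 make up most of these sums. Gene by gene, 7 of 7 exceeded their naive level at least 2-fold in OM 24h (11.9% of all genes) and 2 of 7 in OM 7d (11.0%). In MY 24h 2 were higher than in MY 0h (2.80%) and 1 lower (1.52%). Retnlg, Cxcr2, Mmp8, Mmp9 and Lcn2 stood lower in OM 7d than in OM 24h, as Csf3r did. S100a8 and S100a9 stood higher, at 7826 and 4836 FPKM in OM 24h and 8381 and 5621 in OM 7d. In the mesentery Retnlg stood at 40.5 FPKM in MY 0h and 263.1 in MY 24h, and Cxcr2, Mmp8 and Mmp9 were also higher in MY 24h. S100a8, S100a9 and Lcn2 were lower in MY 24h, with S100a8 at 287.9 FPKM in MY 0h and 218.7 in MY 24h. Relative to Cxcr2, a chemokine receptor gene of neutrophils, Csf3r stood at 1.21, 1.73 and 2.73 in the omentum and 1.32, 2.396 and 1.54 in the mesentery. The part of neutrophils in the Csf3r values was not tested. The genes most like Csf3r were Apoc2 (9.78, 177.7 and 25.1 FPKM in the omentum, r = 0.99), Tifa (r = 0.99) and AF251705 (r = 0.99), and r between Csf3r and Csf1r was 0.86.

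**Figure D3:**
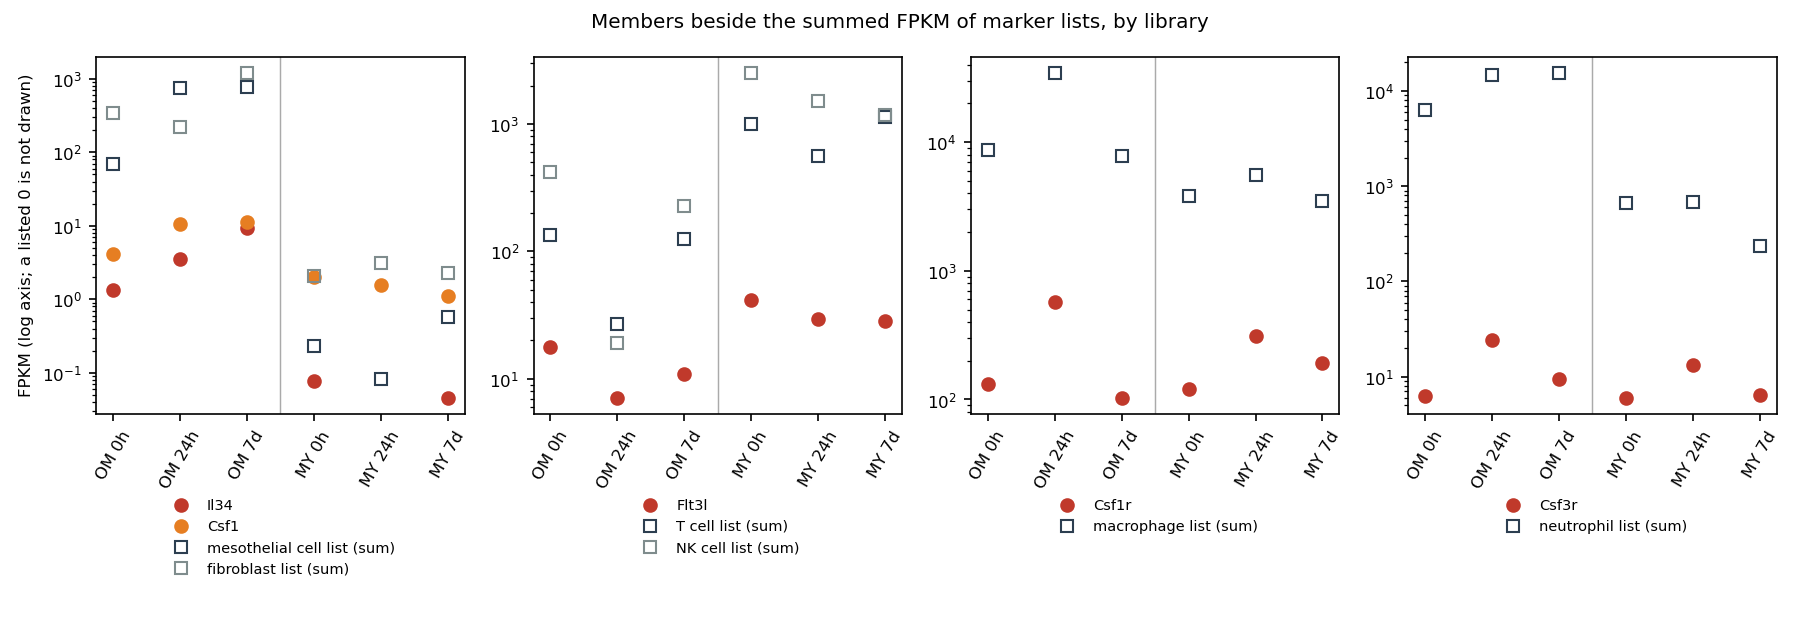
FPKM on a log axis for members (filled circles) and summed FPKM of marker lists (open squares) in each library, with a line between the omental and mesenteric libraries. Il34 and Csf1 stand beside the mesothelial and fibroblast lists, Flt3l beside the T and NK cell lists, Csf1r beside the macrophage list and Csf3r beside the neutrophil list. Il34 is listed at 0 in MY 24h and not drawn there.

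JAK-STAT signalling carries the signals of the GM-CSF and G-CSF receptors. All 14 genes of the list passed the limit on level. OM 24h held 2 of them at least 2-fold higher and 6 lower than MY 24h, against 13.9% and 10.2% of all genes tested. The median log2 difference was -0.60 against 0.00 for all genes tested. At 0 h 3 were higher and 3 lower in the omentum (8.18% and 8.05%), with a median of -0.25. At 7 d 3 were higher and 4 lower (14.1% and 4.99%), with a median of -0.04. Against OM 0h, 1 was higher and 0 lower in OM 24h (11.9% and 6.45%), and 3 and 0 in OM 7d (11.0% and 1.96%). Socs3, which restrains the G-CSF receptor, stood at 112.1, 211.9 and 256.6 FPKM in the omentum and 39.1, 35.7 and 54.4 in the mesentery, without overlap. Socs2, a feedback gene of STAT5, was opposite, at 6.81, 4.54 and 10.6 FPKM in the omentum and 52.4, 69.1 and 35.1 in the mesentery. The survival kinase gene Pim1 was 3.32-fold, 2.75-fold and 3.92-fold higher in the omentum at 0 h, 24 h and 7 d. Jak2, the kinase bound to the beta chain, was at 18.5 FPKM in OM 24h and 85.8 in MY 24h (log2 difference -2.15), and Jak1 was lower in OM 7d than in MY 7d by a log2 difference of -1.16. Bcl2l1, which encodes the survival protein BCL-xL, stood at 8.99 FPKM in OM 0h and 33.1 in OM 24h, while the mesenteric libraries lay between 20.1 and 26.4. In MY 24h and in MY 7d, 0 of the 14 differed 2-fold from MY 0h, against 4.32% and 2.79% of all genes, shares at which a list of 14 would hold few or none.

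**Figure D4:**
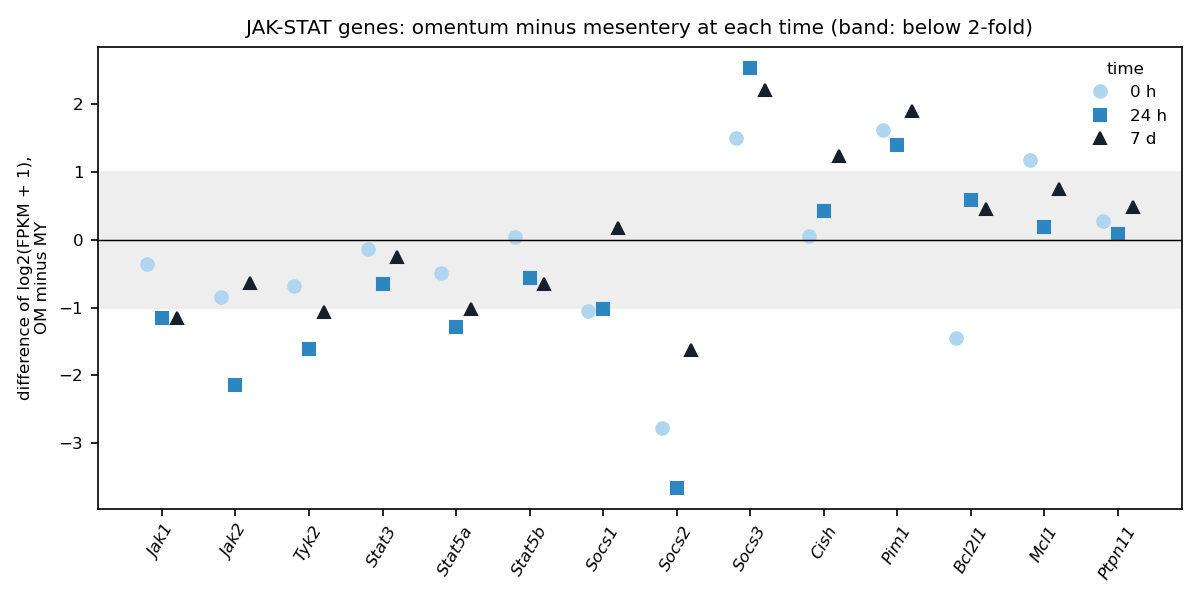
Difference of log2(FPKM + 1), omentum minus mesentery, for the 14 JAK-STAT genes (horizontal axis) at 0 h (circles), 24 h (squares) and 7 d (triangles). The grey band marks differences below 2-fold. Socs3 and Pim1 lie above it and Socs2 below it at all 3 times.

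Flt3l, the ligand of FLT3, was higher in the mesentery. Its level was 17.7, 7.08 and 10.98 FPKM in the omentum and 41.3, 29.6 and 28.3 in the mesentery. The tissues did not overlap, and OM 24h was lowest. The omentum was 2.33-fold lower at 0 h, 4.18-fold lower at 24 h and 2.58-fold lower at 7 d (log2 differences -1.17, -1.92 and -1.29), and OM 24h was 2.51-fold lower than OM 0h. Rpl13a, whose transcripts in GENCODE M1 share most of the Flt3l sequence, stood at 716.3, 414.8 and 601.3 FPKM in the omentum. In the mesentery Rpl13a stood at 573.7, 666.7 and 808.6. It too was lowest in OM 24h, but the tissues overlapped, and how the counting split shared reads was not tested.

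T and NK cells are known sources of FLT3 ligand, and their markers were also higher in the mesentery. The 6 T cell markers summed to 134.0, 26.8 and 125.7 FPKM in the omentum and 999.6, 566.0 and 1145 in the mesentery. The 5 NK cell markers summed to 417.1, 19.1 and 228.5 in the omentum and 2507, 1530 and 1181 in the mesentery. All genes of both lists were higher in every mesenteric library than in any omental one, against 17.7% of all genes tested. Both sums were lowest in OM 24h. Within the mesentery the T cell sum was highest at 7 d, where Flt3l was lowest, while the NK cell sum was lowest there. The part of these cells in the Flt3l values was not tested. The receptor gene Flt3 stood at 24.6, 10.5 and 17.6 FPKM in the omentum and 47.2, 81.5 and 54.8 in the mesentery, also without overlap, and the 6 dendritic cell markers summed to between 168.8 and 383.6 FPKM in the omental and 587.6 and 876.1 in the mesenteric libraries. Ccr7, at 526.0 FPKM or more there, made up most of the mesenteric sum. Of the 6 genes, 3 were higher in every mesenteric library, against 17.7% of all genes tested. Cd209a was higher in every omental one, at 263.8, 103.5 and 82.0 FPKM, as 16.7% of all genes were. The genes most like Flt3l were 2610002J02Rik, Qtrt1 and the DNA repair gene Neil1, and r between Flt3l and Csf1 was -0.92.

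Of 11 other growth factors and receptors of the same families, 6 passed the limit on level. Il5ra, the alpha chain that pairs with Csf2rb for IL-5, stood at 23.2, 5.34 and 15.05 FPKM in the omentum and 1.26, 1.87 and 2.49 in the mesentery. It did not overlap between the tissues and was lowest in the omentum at 24 h, as the B cell marker sum was. The part of B cells in the Il5ra values was not tested. Kit, the stem cell factor receptor, had a log2 difference of -1.88 between OM 24h and MY 24h, and its ligand gene Kitl, at 3.69 FPKM in OM 24h and 1.05 in MY 24h, was higher there. Of these 6, the omentum held 1 higher and 1 lower than the mesentery at 0 h (8.18% and 8.05% of all genes), 2 and 3 at 24 h (13.9% and 10.2%) and 2 and 2 at 7 d (14.1% and 4.99%).

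Counted over the whole group, the 9 members that passed the limit are few, so each count is given beside the share of all genes tested. In OM 0h against MY 0h, 3 of 9 differed at least 2-fold, Il34 higher and Csf2 and Flt3l lower, against 16.2% of all genes (8.18% higher and 8.05% lower). Il34 passed the limit only through omental libraries and Csf2 only through MY 0h, the groups in which they are high, so their differences follow in part from the limit, and that of Csf2 rests on a listed 0. Among genes with at least 1 FPKM in every library, 1 of 7 members (Flt3l) and 1174 of 9926 genes differed. In OM 24h against MY 24h, 4 of 9 did, Csf1, Il34 and Csf2ra higher and Flt3l lower, against 24.1% of all genes (13.9% higher and 10.2% lower), the Il34 difference resting on a listed 0. In OM 7d against MY 7d, 3 of 9 did, Csf1 and Il34 higher and Flt3l lower, against 19.1% (14.1% higher and 4.99% lower). The limit bears on Il34 in the same way at 24 h and 7 d. Among genes with at least 1 FPKM in every library, 3 of 7 members and 1713 of 9926 genes differed at 24 h. At 7 d, 2 of 7 members and 1023 of 9926 genes did. The 3 comparisons between the tissues have no library in common.

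The comparisons with 0 h share the naive library of their tissue. In OM 24h against OM 0h, 5 of 9 members differed, Csf1, Csf1r, Csf2ra and Csf3r higher and Flt3l lower, against 18.3% of all genes (11.9% higher and 6.45% lower), and the median log2 difference was 0.96 for the members and 0 for all genes. In OM 7d against OM 0h, 2 of 9 did, Csf1 and Il34, both higher, against 12.9% (11.0% higher and 1.96% lower). In MY 24h against MY 0h, 2 of 9 did, Csf1r and Csf3r, both higher, against 4.32% (2.80% higher and 1.52% lower). In MY 7d against MY 0h, 1 of 9 did, Csf2rb2, which was lower, against 2.79% (0.498% higher and 2.29% lower).

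Over all times, the 3 omental and 3 mesenteric values did not overlap for 4 of 9 members, Csf1 and Il34 higher and Csf2rb and Flt3l lower in the omentum. Among all genes tested this held for 34.4% (16.7% higher in the omentum and 17.7% in the mesentery), so the members' share is close to that of all genes. The count was 7 when the 7 d libraries were left out, which leaves 2 values a tissue, and for all genes the share was then 52.0%. Of the 4, only Il34 was separated by a gap of at least 2-fold, against 4.85% of all genes. Il34 passed the limit only through the omental libraries, in which it is high, so its separation follows in part from the limit. With an FPKM of at least 1 required in every library Il34 drops out, and 3 of 7 members did not overlap, against 30.0% of all genes.

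**Figure D5:**
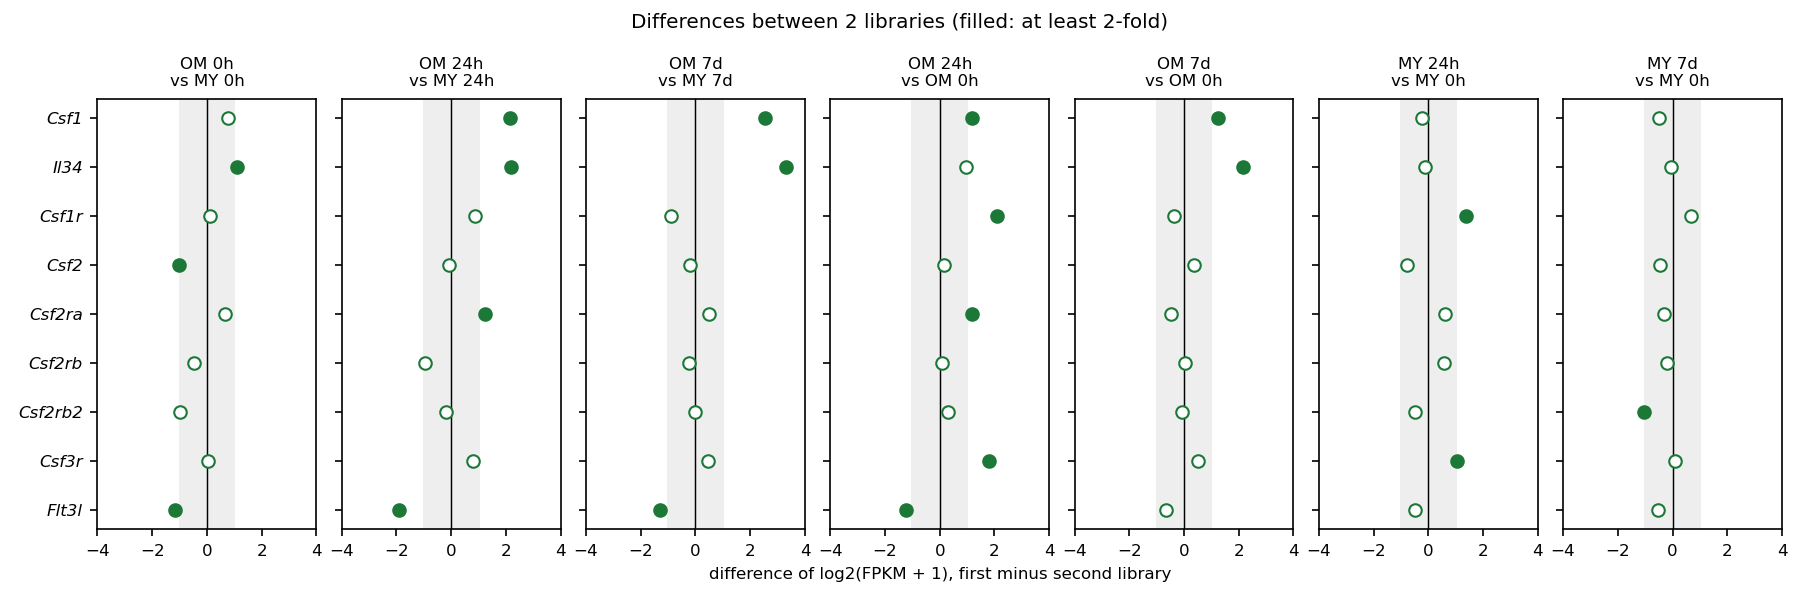
Difference of log2(FPKM + 1) between the 2 libraries named above each panel (horizontal axis, first minus second), for the 9 members that passed the limit on level. Filled points differ at least 2-fold and lie outside the grey band. Csf1 and Il34 lie to the right and Flt3l to the left in all 3 comparisons of the tissues, and Csf1r, Csf2ra and Csf3r lie to the right in OM 24h against OM 0h.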

How the data were processed

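RNA of flow-sorted macrophages was sequenced as 75-base paired-end reads. Per the submitters' processing notes, read quality was examined with FastQC 0.11.4 and alignment to mm9 used STAR 2.4.2a. The authors deposited 1 table of FPKM values per gene symbol made with Cufflinks on a UCSC annotation. FPKM are not counts, so no count test was run, and with 1 library per condition no test was possible. Read numbers cannot be recovered from the table. The commonest ratio of low FPKM values put the libraries at roughly 0.852 to 1.49 times the depth of MY 0h, and low values are the least precise.

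Differences were taken as log2(FPKM + 1) and counted at 2-fold for genes that reached an FPKM of 1 in some library, with Python 3.11.15, numpy 2.4.6 and pandas 2.3.3. Figures were drawn with matplotlib 3.10.9. On simulated data of 13064 genes for OM 0h against MY 0h, 200 of 200 changed genes were found with 0 false calls. The planted changes were well above 2-fold, in genes with a mean FPKM of at least 10, and the noise was small. That run checks the code only and cannot give the rate of false calls in the real libraries, whose spread is unknown. Members, gene lists and marker lists were chosen with earlier results of these data known. Besides the members, genes were named if among the 2 largest differences in a direction per list and comparison at an FPKM of at least 10, or among the 3 with the most similar pattern to a member. Src, Spi1, Irf8, Adam17, Ptprz1, Kitl, Rpl13a, Hmgxb3, Cd74 and single marker genes were named outside this rule, after their values were seen. Gene positions come from NCBIM37 with GENCODE M1, which is not the annotation the authors used, promoters from RefSeq (GRCm38.p6). Alternatives were pseudocounts of 0.1 and 5, other limits on low values, 2 rescalings, and leaving out the libraries of each time. The marker genes Chi3l3 and Ly6g are not rows of the table.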

Additional observations from a re-analysis of the deposited data

Results flagged for a closer look

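Each of the following genes differed from 0 h in opposite directions in the omentum and the mesentery, by at least 1.5-fold each way on the log2(FPKM + 1) scale. No member did on that scale, Csf1 coming close at 7 d with 1.26 in the omentum and -0.51 in the mesentery, and with a pseudocount of 0.1 or after rescaling to the same sum its mesenteric difference (-0.80 and -0.65) passed that size too. With 1 library per condition the difference between the tissues was not tested. Flt3, the receptor of FLT3 ligand, had a log2 difference from 0 h of -1.15 in OM 24h and 0.78 in MY 24h. Fabp4, a fatty acid carrier, had -1.54 in OM 24h and 1.07 in MY 24h, and at 7 d the signs were turned, with 0.86 in OM 7d and -0.61 in MY 7d. Sdc1 had 1.27 in OM 24h and -1.32 in MY 24h. At 7 d, Il5ra had -0.59 in the omentum and 0.63 in the mesentery, and Lyn had -0.59 in the omentum and 0.60 in the mesentery.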

How the results depend on the processing

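No paired analysis was possible because no result came from a test, each condition having 1 library. No member's difference that was counted changed its sign under any alternative, and of 252 recomputed differences of members 235 moved by less than 1.5-fold (0.58 on the log2 scale). The counts of members that differed at least 2-fold depended on the pseudocount and on the limit on low values. With a pseudocount of 0.1, OM 0h against MY 0h had 5 in place of 3. With a pseudocount of 5, it had 1, OM 24h against OM 0h had 3 in place of 5, OM 7d against OM 0h 1 in place of 2, MY 24h against MY 0h 1 in place of 2 and MY 7d against MY 0h 0 in place of 1. With an FPKM of at least 1 required in every library, which drops Il34 and Csf2, OM 0h against MY 0h and OM 7d against OM 0h had 1 each. Members with non-overlapping tissues numbered 1 with a gap of 2-fold and 7 without the 7 d libraries. Rescaling to a sum of 1000000 shifted the median of all genes by up to -0.27 (OM 24h against MY 24h) and took the 2-fold calls from Csf2ra in both comparisons of OM 24h and from Csf3r in MY 24h, and gave them to Csf2rb2 (OM 0h lower than MY 0h), Csf2rb (OM 24h lower than MY 24h) and Csf2 (MY 24h lower than MY 0h).

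The counts over all genes moved by more than 1.5 times in the same settings. With a pseudocount of 0.1 they were 3189 (OM 0h against MY 0h, 2119 with a pseudocount of 1), 3599 (OM 24h against OM 0h, 2396), 1242 (MY 24h against MY 0h, 565) and 912 (MY 7d against MY 0h, 364). In the order of the 7 comparisons given in the text, a pseudocount of 5 left 1033, 1625, 1174, 1165, 699, 213 and 143, and the limit in every library left 1174, 1713, 1023, 1424, 629, 329 and 204. Genes with non-overlapping tissues numbered 634 with a gap of 2-fold, 2980 with the limit in every library, 7446 without the 0 h and 6789 without the 7 d libraries, against 4498. The cause was not tested where the construction does not show it.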
